A study of Mus musculus with 6 samples.

Results

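Interleukin 1 and interleukin 18 are inflammatory cytokines of one family, and 10 genes of their axis were followed in CD36+ NK and CD36- NK cells from fibrotic mouse liver. The genes were Il1a, Il1b and Il18 (ligands), Il1rn, Il1r2 and Il18bp (antagonist, decoy receptor and binding protein), Il1rap, Il18r1 and Il18rap (receptor chains) and Nlrp3 (an inflammasome sensor). They were chosen by their symbols, and all 10 were found among the 57180 genes of the deposited table. The cells came from male C57BL/6J mice aged 6 to 8 weeks that had been given CCl4 (2.5 ml/kg of a 20% solution in olive oil, injected 2 times a week over 4 weeks). Livers were harvested 48 h later. In flow cytometry the study defined NK cells as CD3- NK1.1+, and it states no gate for the sort that was sequenced. NK cells from fibrotic liver were sorted by CD36, so both groups carried the same genotype and treatment. No library of untreated mice was compared here, and 3 libraries stood in each group. Neither the labels nor the methods state how many mice gave the cells of a library, and p-values therefore measure the spread between these libraries.

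IL-1α and IL-1β signal through the receptor IL-1R1 and its accessory chain IL-1RAP. Pro-IL-1β and pro-IL-18 are cut by caspase-1 once an inflammasome such as that of NLRP3 has assembled, and both cytokines are mainly made by macrophages and other myeloid cells. NK cells carry the IL-18 receptor, built of IL-18R1 and IL-18RAP, and respond to IL-18 together with IL-12 by making interferon-γ. IL-1RA blocks the IL-1 receptor, IL-1R2 binds IL-1 without signalling, and IL-18BP captures IL-18 in solution.

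The libraries held 10292480 to 13787189 counts. Levels are given as CPM, which are counts over the library total scaled by TMM (trimmed mean of M values), and changes as log2 fold changes of CD36+ NK over CD36- NK. The library names write the sign of CD36 otherwise than the sample titles, and the titles were followed. Cd36 had 1232, 3569 and 2859 counts in the libraries titled CD36+ NK and 186, 359 and 175 in those titled CD36- NK. A differentially expressed gene (DEG) had an adjusted p below 0.05 in edgeR's quasi-likelihood test (Benjamini-Hochberg adjustment, 14761 genes tested) and a fold change above 2.

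The marker genes of the labelled cell type were present in both groups but at unequal levels. For the counts that follow, 5.96% of all tested genes were DEGs, 26.3% had an unadjusted p below 0.05, and 7.74% were DEGs with DESeq2 and 8.45% with edgeR's exact test. A list is said to be led by the gene with its highest mean FPKM (counts per gene length and library total) over the 6 libraries. The 10 NK lineage genes summed to 933 to 1129 CPM in CD36+ NK and 4956 to 6310 CPM in CD36- NK, all 10 were lower DEGs with a median log2 fold change of -2.43, and the list was led by Gzma. The macrophage and Kupffer cell list, led by Lyz2, summed to 6736 to 9368 CPM in CD36+ NK and 2472 to 5812 CPM in CD36- NK (4 of 10 tested genes higher DEGs and 0 lower, 9 at an unadjusted p below 0.05, 8 DEGs with DESeq2 and with edgeR's exact test, median 2.89), and the Kupffer cell gene Clec4f had 17, 624 and 0 counts in CD36+ NK and 0 in every CD36- NK library. Of these sums, Lyz2 alone made up 3486 to 4305 CPM in CD36+ NK and 2052 to 4747 CPM in CD36- NK. Lyz2 had a log2 fold change of 0.09 (edgeR adjusted p = 0.882). The B cell list, led by Cd79a, summed to 5070 to 5664 and 3375 to 3844 CPM (1 of 8 a higher DEG, 7 at an unadjusted p below 0.05, 1 DEG with DESeq2 and with the exact test, median 0.51), and the liver endothelial list, led by Pecam1, to 213 to 307 and 154 to 169.9 CPM (0 of 4 tested genes DEGs in edgeR, 3 at an unadjusted p below 0.05 and 2 DEGs with DESeq2 and with edgeR's exact test, median 1.17). Neutrophil genes, led by S100a9, summed to 5678, 943 and 1200 CPM in CD36+ NK replicates 1 to 3 and to 4730, 2675 and 1955 CPM in CD36- NK (0 of 11 DEGs in edgeR, 1 at an unadjusted p below 0.05 and 1 DEG with DESeq2 and with the exact test, median -0.24). T cell genes, led by Trac, summed to 338 CPM in CD36+ NK replicate 1 and to 27.4 to 47.7 CPM in the other 5 libraries (2 of 8 higher DEGs, 3 at an unadjusted p below 0.05, 2 DEGs with DESeq2 and with the exact test, median 2.58). The remaining lists were overlapping or lower in CD36+ NK: monocytes, led by Chil3 (2 higher and 1 lower DEG of 9, 6 at an unadjusted p below 0.05, 5 DEGs with DESeq2 and with the exact test, median -0.70), conventional dendritic cells, led by Ccr7 (2 higher and 1 lower of 8, 5 at an unadjusted p below 0.05, 3 DEGs with DESeq2 and with the exact test, median 0.38), ILC1, led by Tmem176b (0 of 7, 3 at an unadjusted p below 0.05 and 0 with DESeq2 or the exact test, median -0.59), and basophils and mast cells, led by Prss34 (0 of 6, 4 at an unadjusted p below 0.05 and 3 with DESeq2 and with the exact test, median -1.37). No hepatocyte gene had enough counts to be tested, and the list summed to 1.58 to 10.3 CPM in CD36+ NK and 0.0884 to 0.692 CPM in CD36- NK. In bulk libraries fewer cells of a type and less RNA per cell cannot be told apart, and the part of other cells in the values that follow was not tested except where a value is given.

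Of the 10 genes, 7 were DEGs. Il1a, Il1b, Il18, Il18bp and Nlrp3 were higher in CD36+ NK, Il18r1 and Il18rap were lower, and Il1rn, Il1r2 and Il1rap were not called. Among all tested genes 5.96% were DEGs. The higher DEGs were 2.98% of all tested genes and the lower DEGs 2.98%, a split that moved with 1 library left out, to 94 higher and 323 lower without CD36- NK replicate 1 and 708 and 452 without CD36- NK replicate 2. All 10 genes passed the filter on low counts, Il1a only through the CD36+ NK libraries, in which it was high, so its call is a description. With at least 10 counts required in every library Il1a was not tested, and 6 of the 9 other genes were DEGs. The median log2 fold change of the 10 genes was 0.89 and that of all tested genes 0.01. The same 7 genes did not overlap between the groups, as 32.8% of all tested genes did not (17.0% higher and 15.7% lower). The plot of levels by library shows each value.

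**Figure D1:**
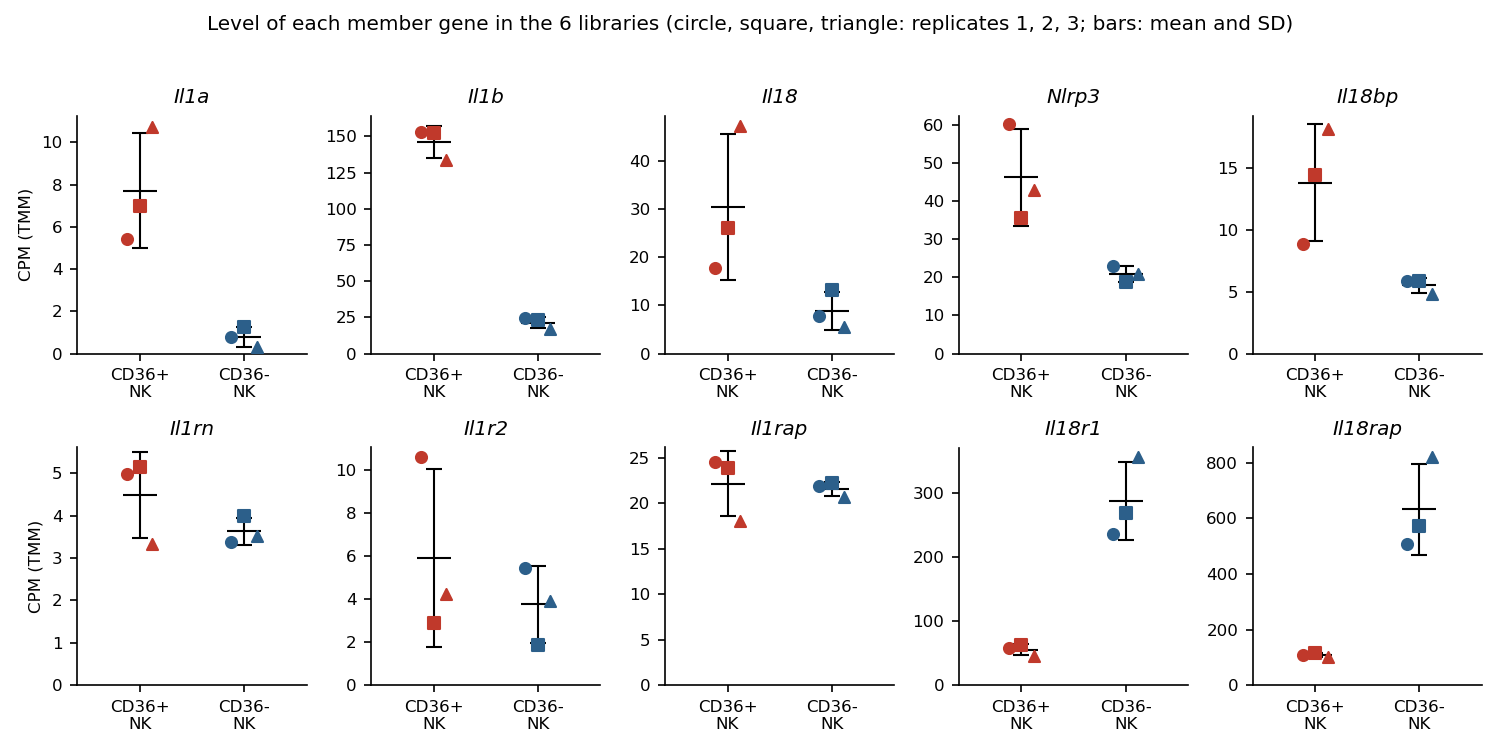
Level of each of the 10 genes (CPM after TMM scaling, linear axes from 0) in the 3 CD36+ NK libraries (red) and the 3 CD36- NK libraries (blue), with symbols for replicates 1 to 3 and bars for the mean and SD. Il1a, Il1b, Il18, Nlrp3 and Il18bp lie higher in every CD36+ NK library, Il18r1 and Il18rap lie lower, and Il1rn, Il1r2 and Il1rap overlap.

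Each of the 3 ligand genes was higher in every CD36+ NK library. Il1b (ENSMUSG00000027398, chromosome 2, from 129206490 to 129213059, minus strand) encodes IL-1β. It was at 153, 152 and 134 CPM in CD36+ NK replicates 1 to 3 and at 24.5, 22.8 and 16.9 CPM in CD36- NK. The CD36+ NK libraries stood close together, and the lowest of them was far above the highest CD36- NK library. The log2 fold change was 2.77 ± 0.154 (SE, edgeR adjusted p = 0.000428), a 6.81-fold difference, and Il1b had the eighth lowest p-value of all tested genes. Il1bos, a gene on the opposite strand that overlaps the start of Il1b by 1243 bases, had 64 counts against 6141 for Il1b, and the strand setting of the counting is not given in the sources used here.

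Il1a (ENSMUSG00000027399, chromosome 2, from 129141530 to 129151892, minus strand) encodes IL-1α, which is active without cleavage and lies 54.6 kb from Il1b. It had 61, 95 and 129 counts in CD36+ NK and 10, 14 and 3 in CD36- NK. In CPM these were 5.43, 6.99 and 10.7 against 0.769, 1.24 and 0.293, so the groups were well apart at a low level. The fitted log2 fold change was 3.30 ± 0.475 (SE, edgeR adjusted p = 0.00805), for a gene that entered the test only through its CD36+ NK counts. Gm14023 overlaps Il1a on the opposite strand over 8217 bases and had 54 counts in all, at mean levels of 0.784 CPM in CD36+ NK and 0.756 CPM in CD36- NK. The nearest tested gene beyond Il1a, Ckap2l, had a log2 fold change of 0.0047 (edgeR adjusted p = 0.993), and the nearest beyond Il1b, the pseudogene Spcs2-ps, one of -0.50 (edgeR adjusted p = 0.404).

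Il18 (ENSMUSG00000039217, chromosome 9, from 50466127 to 50493140, plus strand) was at 17.8, 26.0 and 47.1 CPM in CD36+ NK and at 7.84, 13.1 and 5.57 CPM in CD36- NK. The groups did not overlap, but the CD36+ NK libraries differed widely among themselves. Il18 had a log2 fold change of 1.78 ± 0.430 (SE, edgeR adjusted p = 0.0435), close to the threshold. Without CD36+ NK replicate 2 or 3 or CD36- NK replicate 1 or 3 the adjusted p was 0.0989, 0.117, 0.137 and 0.135, and the call was lost. Bco2, which overlaps Il18 by 355 bases on the other strand, had a log2 fold change of 1.52 (edgeR adjusted p = 0.0890) and a mean of 6.08 CPM in CD36+ NK.

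Of the inhibitors, Il18bp was a higher DEG, and Il1rn and Il1r2 were not called. Il18bp (ENSMUSG00000070427, chromosome 7, from 101664092 to 101667897, minus strand) was at 8.81, 14.4 and 18.1 CPM in CD36+ NK and at 5.84, 5.84 and 4.79 CPM in CD36- NK. Every CD36+ NK library was above every CD36- NK library, with a log2 fold change of 1.33 ± 0.277 (SE, edgeR adjusted p = 0.0285). The adjusted p was 0.0924, 0.0880, 0.0876 and 0.0979 without CD36+ NK replicate 2 or 3 or CD36- NK replicate 1 or 3, which ended the call. Numa1, which overlaps it by 80 bases on the other strand, was far more abundant, at 278 and 324 CPM, and had a log2 fold change of -0.22.

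Il1rn (ENSMUSG00000026981, chromosome 2, from 24226865 to 24241506, plus strand), which encodes the receptor antagonist IL-1RA, was at 4.98, 5.15 and 3.33 CPM in CD36+ NK and at 3.38, 3.98 and 3.52 CPM in CD36- NK. The groups overlapped, with a log2 fold change of 0.31 (95% interval -0.26 to 0.88, edgeR adjusted p = 0.484). Il1r2 (ENSMUSG00000026073, chromosome 1, from 40113239 to 40164391, plus strand), the decoy receptor, was at 10.6, 2.87 and 4.24 CPM in CD36+ NK and at 5.46, 1.86 and 3.91 CPM in CD36- NK. In each group replicate 1 was the highest, as it was for the summed neutrophil genes given above. Replicates 2 and 3 had the same order for both in CD36+ NK. In CD36- NK Il1r2 was higher in replicate 3 and the neutrophil sum in replicate 2. Il1r2 had a log2 fold change of 0.64 (95% interval -0.69 to 1.97, edgeR adjusted p = 0.539) and was -0.10 without CD36+ NK replicate 1. The interval of Il1rn did not reach 2-fold in either direction, while that of Il1r2 reached past 2-fold upwards.

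Within each library, Il1b was set against its inhibitors as a log2 difference of CPM with a pseudocount of 2 CPM. Since CPM are not scaled by gene length, only the change of a difference between the groups can be read. The difference of Il1b minus Il1rn was 4.47, 4.43 and 4.67 in CD36+ NK and 2.30, 2.05 and 1.78 in CD36- NK. The gap was 2.48 (two-sided exact permutation p = 0.1, which is the lowest that 3 libraries against 3 allow, 0.15 after adjustment over 3 pairs). Against Il1r2 the gap was 2.28 (exact p = 0.1, adjusted 0.15), without overlap between the groups. The difference of Il18 minus Il18bp was 0.98 ± 0.27 (SD, n = 3) in the CD36+ NK libraries and 0.48 ± 0.41 in the others, and these overlapped (exact permutation p = 0.3, adjusted 0.3). As ratios of the authors' FPKM, Il1b was 102 to 138 times Il1rn in CD36+ NK and 16.6 to 24.97 times in CD36- NK, and Il18 was 5.36 to 7.72 and 3.45 to 6.66 times Il18bp. The gene lengths behind these FPKM were not checked, so the size of such a ratio is uncertain.

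Nlrp3 (ENSMUSG00000032691, chromosome 11, from 59432394 to 59457782, plus strand), the sensor whose inflammasome activates caspase-1, was at 60.3, 35.6 and 42.9 CPM in CD36+ NK and at 22.9, 18.8 and 21.0 CPM in CD36- NK. The groups did not overlap, and CD36+ NK replicate 1 was the highest. Nlrp3 had a log2 fold change of 1.14 ± 0.204 (SE, edgeR adjusted p = 0.0174), just above 2-fold. It was 0.89 without CD36+ NK replicate 1, below the fold threshold, and the adjusted p was 0.0618 and 0.0692 without CD36- NK replicate 1 or 3.

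The receptor chains of IL-18 moved the other way. Il18r1 (ENSMUSG00000026070, chromosome 1, from 40504712 to 40540014, plus strand), the ligand-binding chain, was at 57.8, 61.8 and 45.8 CPM in CD36+ NK and at 237, 270 and 356 CPM in CD36- NK. Il18rap (ENSMUSG00000026068, chromosome 1, from 40554522 to 40590865, plus strand), the signalling partner, was at 108, 117 and 99.5 CPM in CD36+ NK and at 507, 571 and 820 CPM in CD36- NK. Both were several times lower in every CD36+ NK library, with CD36- NK replicate 3 the highest for both. For Il18r1 the log2 fold change was -2.38 ± 0.188 (SE, edgeR adjusted p = 0.000949), and for Il18rap it was -2.55 ± 0.194 (SE, edgeR adjusted p = 0.000856). With gene lengths that were not checked, the FPKM of Il18rap was 1.54 to 1.80 times that of Il18r1 in CD36+ NK and 1.76 to 1.91 times in CD36- NK.

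Il1rap (ENSMUSG00000022514, chromosome 16, from 26400454 to 26548867, plus strand), the accessory chain shared by receptors for IL-1, IL-33 and IL-36, did not separate the groups. It was at 24.6, 23.9 and 18.0 CPM in CD36+ NK and at 21.9, 22.2 and 20.7 CPM in CD36- NK. Il1rap had a log2 fold change of 0.04 (95% interval -0.31 to 0.38, edgeR adjusted p = 0.911), so a change of 2-fold in either direction lay outside the interval.

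Il18r1 and Il18rap lie next to each other, 14.5 kb apart, at the end of a cluster of IL-1 receptor genes on chromosome 1, and the plot of this cluster gives its other genes. Il1rl1, which encodes the IL-33 receptor and ends just before Il18r1 starts, had a log2 fold change of 0.04 ± 0.638 (SE, edgeR adjusted p = 0.981). Il1rl2, a receptor for IL-36, had one of -0.13 ± 0.677 (SE), and Il1r1, the signalling receptor for IL-1, one of 1.5003 ± 0.505 (SE, edgeR adjusted p = 0.108). Il1r1 was scarce, with 24, 17 and 29 counts in CD36+ NK and 4, 13 and 6 in CD36- NK, and it passed the filter on low counts only through CD36+ NK, so these values are a description. Gm37347, inside Il1r2, had a log2 fold change of 0.11. Outside the cluster, the nearest tested genes were Map4k4 (-0.21, edgeR adjusted p = 0.186) and Slc9a2 (0.84, edgeR adjusted p = 0.302). Of the 8 tested genes from Il1r2 to Slc9a2, Il18r1 and Il18rap were the DEGs.

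**Figure D2:**
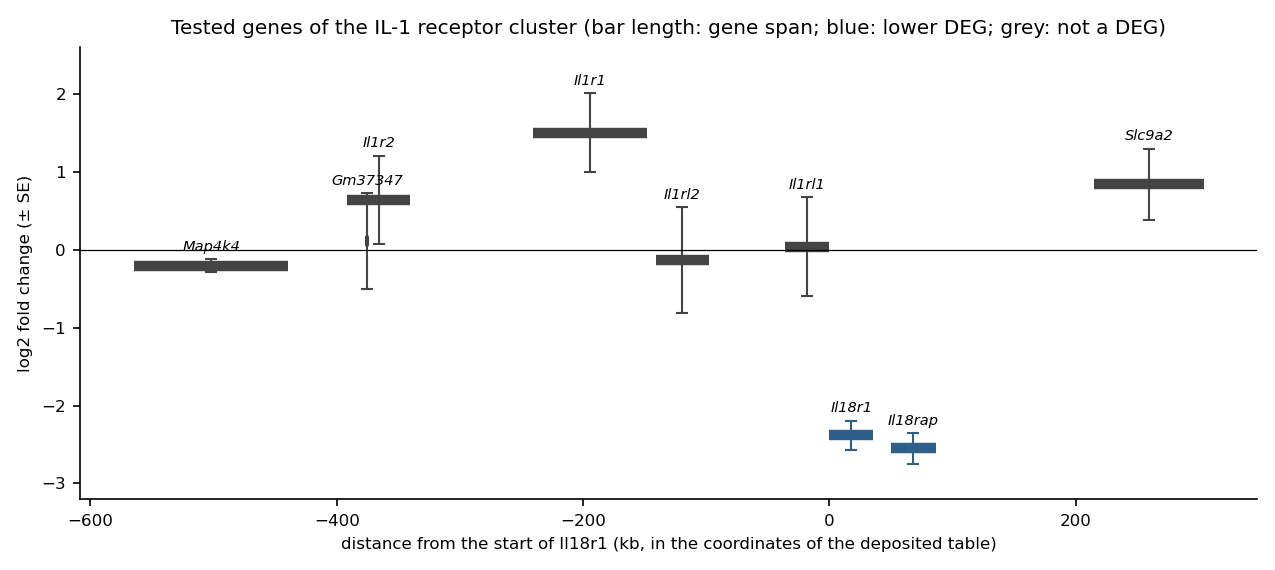
Log2 fold change of CD36+ NK over CD36- NK with its standard error (vertical axis) for the tested genes of the IL-1 receptor cluster and the nearest tested gene on each side, by distance from the start of Il18r1 in kb (horizontal axis), with bars as long as the genes. Il18r1 and Il18rap lie at -2.38 and -2.55, while the adjacent Il1rl1 lies at 0.04.

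The promoters of Il1b, Il1a, Il18r1 and Il18rap are shown because Il1b lies near Il1a and Il18r1 near Il18rap, and both genes of each pair differed in 1 direction. They are RefSeq windows of GRCm38.p6 from 250 bases before to 50 bases after the outermost start, written 5′ to 3′ on the strand of the gene, with motif matches in capitals. Il1b and Il1a come from the minus strand (chr2:129371090-129371389 and chr2:129309923-129310222), Il18r1 and Il18rap from the plus strand (chr1:40465302-40465601 and chr1:40515112-40515411).
Il1b: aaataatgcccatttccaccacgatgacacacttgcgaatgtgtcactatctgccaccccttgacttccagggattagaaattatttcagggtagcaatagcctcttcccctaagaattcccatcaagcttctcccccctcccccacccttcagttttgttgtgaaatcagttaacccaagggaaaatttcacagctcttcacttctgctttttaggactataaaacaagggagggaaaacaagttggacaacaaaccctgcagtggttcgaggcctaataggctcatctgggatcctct
Il1a: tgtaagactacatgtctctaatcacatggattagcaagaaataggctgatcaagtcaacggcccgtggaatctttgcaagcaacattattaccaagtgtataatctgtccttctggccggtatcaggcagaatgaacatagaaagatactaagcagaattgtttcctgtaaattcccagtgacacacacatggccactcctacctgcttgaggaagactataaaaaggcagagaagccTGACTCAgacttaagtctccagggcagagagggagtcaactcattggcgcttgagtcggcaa
Il18r1: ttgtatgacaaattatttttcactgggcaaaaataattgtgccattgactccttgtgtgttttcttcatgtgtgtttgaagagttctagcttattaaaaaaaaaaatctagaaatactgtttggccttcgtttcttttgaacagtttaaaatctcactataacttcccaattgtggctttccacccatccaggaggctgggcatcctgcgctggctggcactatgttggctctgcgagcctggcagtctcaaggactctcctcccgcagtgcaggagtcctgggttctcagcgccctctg
Il18rap: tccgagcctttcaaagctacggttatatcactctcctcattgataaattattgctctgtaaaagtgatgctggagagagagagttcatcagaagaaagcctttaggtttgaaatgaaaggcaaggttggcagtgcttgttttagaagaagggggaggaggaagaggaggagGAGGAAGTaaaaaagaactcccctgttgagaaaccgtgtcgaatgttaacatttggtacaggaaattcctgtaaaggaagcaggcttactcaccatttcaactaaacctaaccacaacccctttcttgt
Both strands were searched for the NF-kB motif, a T-box motif (AGGTGTGA), a PU.1 and ETS motif (GAGGAAGT), an AP-1 motif (TGANTCA) and a C/EBP motif (TTGCNNCAA). Il1a held the AP-1 letters, as did 7.92% of 27025 genes with such a window, and Il18rap the PU.1 and ETS letters, as did 3.25%. The windows of Il1b and Il18r1 held none of these motifs. All 10 genes had a window, and among the other 6 the NF-kB motif (5.54% of all genes) and the AP-1 letters were found in Il1rn and the C/EBP letters (2.12%) in Il18bp. The T-box letters (1.28%) were in 0 of the 10. A match is a match of letters and was not tested as a site.

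Levels of different genes can be compared only per length, and the authors' FPKM are given for this. The gene lengths behind them were not checked, so the order below is that of the FPKM alone. In CD36- NK the order ran Il18rap (85.7 ± 21.2, SD, n = 3), Il18r1 (47.0 ± 9.45), Il1b (9.22 ± 1.82), Il18 (5.59 ± 2.53), Nlrp3 (4.11 ± 0.367), Il1r2 (1.61 ± 0.770), Il1rap (1.45 ± 0.0768), Il18bp (1.16 ± 0.145), Il1rn (0.453 ± 0.0459) and Il1a (0.396 ± 0.249). The libraries of Il1b and Il18, of Il18 and Nlrp3, of Il1r2 and Il1rap, and of Il1rn and Il1a overlapped in this order. In CD36+ NK Il1b led at 61.3 ± 6.09 FPKM, followed by Il18 (18.4 ± 8.68) and Il18rap (14.3 ± 1.37), whose libraries overlapped. Nlrp3 (8.88 ± 2.64) and Il18r1 (8.81 ± 1.498) overlapped next. Il1a (3.82 ± 1.24), Il18bp (2.83 ± 0.892), Il1r2 (2.503 ± 1.81) and Il1rap (1.45 ± 0.270) overlapped each with its neighbour, and Il1rn was the lowest at 0.547 ± 0.134 FPKM. The highest FPKM of the axis was that of Il18rap in CD36- NK and of Il1b in CD36+ NK.

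Relative to marker genes of the same library, the genes of the axis differed from one another. The mean log2 level of the 10 NK lineage genes was subtracted from Il18r1 and Il18rap, and that of the 10 tested macrophage and Kupffer cell genes from the other 8. Relative to the NK lineage, Il18r1 was at -0.64 ± 0.07 (SD, n = 3) in the CD36+ NK libraries and -0.68 ± 0.24 in the others, a difference of 0.04 (exact permutation test, p = 1.0) that was -0.095 without CD36- NK replicate 1. Il18rap was at 0.31 ± 0.06 and 0.44 ± 0.28, a difference of -0.13 (exact permutation p = 0.5, adjusted 0.625 over the 10 genes) that ran from -0.28 without CD36- NK replicate 1 to -0.0093 without CD36- NK replicate 3. The log2 fold changes of the NK lineage genes ran from -2.58 to -2.21, and those of Il18r1 and Il18rap lay within this range.

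Relative to the macrophage list, Il1b differed by 0.28 between the groups (-0.97 ± 0.70 in CD36+ NK and -1.26 ± 0.86 in CD36- NK, exact permutation p = 0.7), and the libraries overlapped. The sign of this difference turned with 1 library left out, from -0.21 without CD36- NK replicate 2 and -0.049 without CD36+ NK replicate 1 to 0.65 without CD36+ NK replicate 3. Il1a differed by -0.60 (exact permutation p = 0.4), and by 0.14 with a pseudocount of 0.5 CPM. It ran from -1.03 without CD36- NK replicate 2 to -0.37 without CD36- NK replicate 3. Il1a passed the filter only through CD36+ NK, and its CD36- NK levels of 0.293 to 1.24 CPM lay below the pseudocount of 2 CPM. These values of Il1a are therefore a description. Il18, Il18bp, Il1rn and Il1rap lay lower relative to this list in every CD36+ NK library, by -0.86, -1.36, -2.20 and -2.37 (exact permutation p = 0.1 each, adjusted 0.25). Nlrp3 and Il1r2 differed by -1.34 and -2.001 and overlapped (exact permutation p = 0.2 each). No adjusted p in this family was below 0.25, and 3 libraries against 3 cannot give an unadjusted p below 0.1. Il18 had the narrowest spread against the list in CD36+ NK, at -3.28, -3.36 and -3.18, although its own level ran from 17.8 to 47.1 CPM. In CD36- NK its spread against the list was wider, at -2.12, -2.97 and -2.15.

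**Figure D3:**
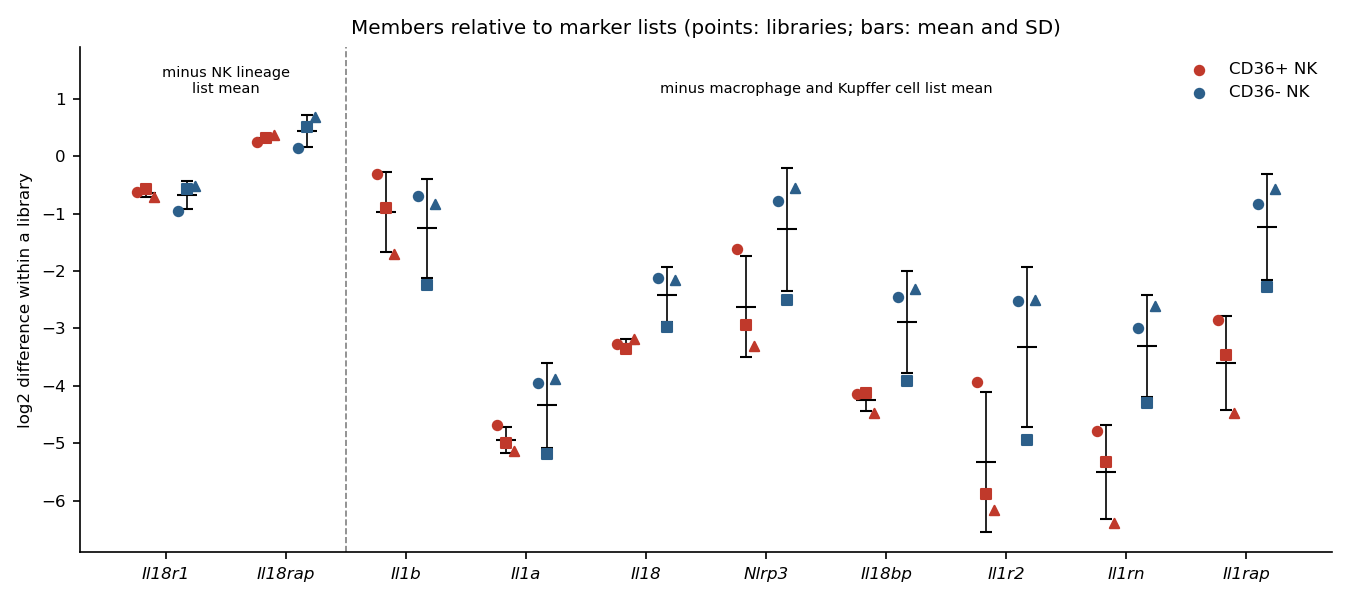
Log2 level of each gene minus the mean log2 level of a marker list in the same library (vertical axis), the NK lineage list for Il18r1 and Il18rap and the macrophage and Kupffer cell list for the other 8 genes, in CD36+ NK (red) and CD36- NK (blue), with bars for the mean and SD of 3 libraries. Il18r1, Il18rap and Il1b overlap between the groups, while Il1rn and Il1rap lie lower in every CD36+ NK library.

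By the root mean square difference of log2 levels centred on each gene's mean over the 6 libraries, the genes most like Il1b were Scnn1a (0.260), Rps6ka2 (0.297) and Apoc2 (0.371), with log2 fold changes of 2.84, 2.65 and 2.29. Those most like Il18r1 were Heatr9 (0.0828), Klra7 (0.103) and Klre1 (0.112), with log2 fold changes of -2.67, -2.47 and -2.496. Klra7 and Klre1 encode NK cell receptors, and Klra7 belongs to a family of similar genes whose reads the counting could have split.

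The other genes of the pathway were taken from 4 lists of 69 genes, of which 60 were tested. In CD36+ NK 4 of them were higher DEGs and 1 was a lower DEG, which is 8.33%, near the 5.96% of all tested genes. Of the higher DEGs, Naip1 and Cxcl1 passed the filter on low counts only through CD36+ NK. With at least 10 counts required in every library 3 pathway genes were DEGs. The median log2 fold change of the 60 genes was 0.05. The plot of fold changes by list sets them beside the 10 genes. Leaving out replicate 2 or 3 of CD36+ NK or replicate 1 of CD36- NK left 3 DEGs. Leaving out replicate 3 of CD36- NK left 0 higher DEGs and 1 lower DEG, so that Ninj1, Naip1, Cxcl1 and Cxcl2 lost their calls together (edgeR adjusted p = 0.0910, 0.0752, 0.0549 and 0.106).

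**Figure D4:**
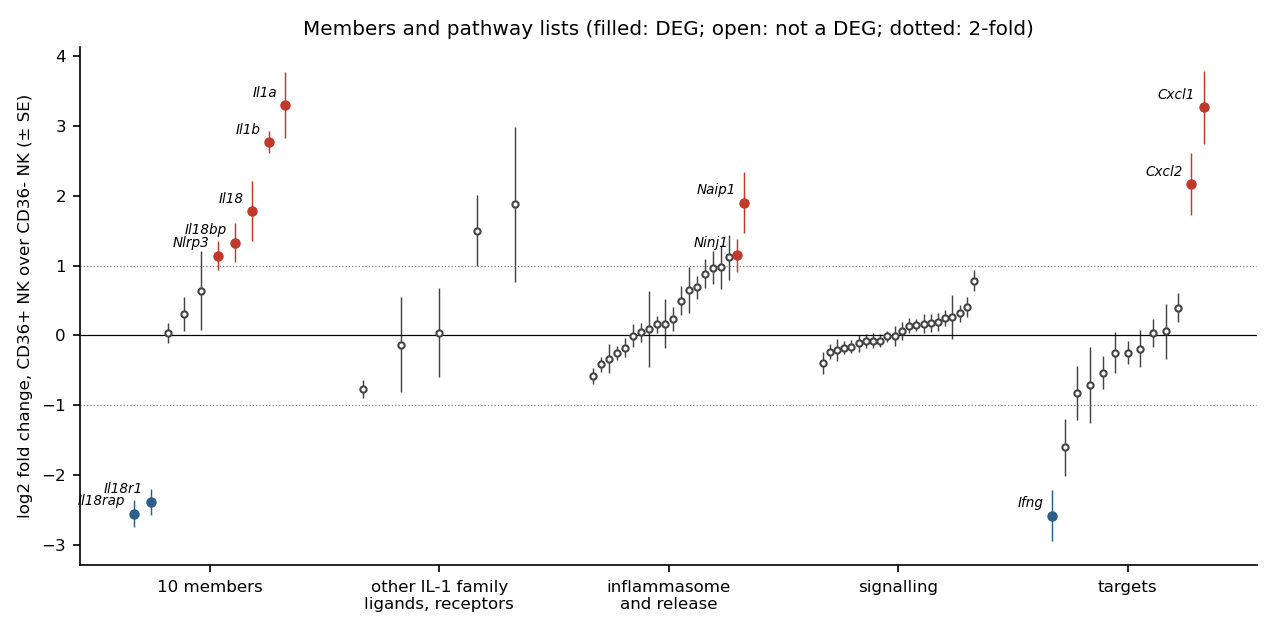
Log2 fold change of CD36+ NK over CD36- NK with its standard error (vertical axis) for the 10 genes and for the tested genes of 4 pathway lists (horizontal axis), with filled points for DEGs (red higher, blue lower), open points for other genes and dotted lines at 2-fold. Signalling genes lie between -0.39 and 0.78, whereas the 10 genes run from -2.55 to 3.30.

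Of the 12 other ligands and receptors of the family, 5 had enough counts and 0 were DEGs in edgeR's quasi-likelihood test, with 2 at an unadjusted p below 0.05, 0 DEGs with DESeq2 and 1 with edgeR's exact test. Il1f9, which encodes IL-36γ, was at 15.6, 1.77 and 0.831 CPM in CD36+ NK and 2.998, 0.531 and 1.27 CPM in CD36- NK, and was highest in CD36+ NK replicate 1. Il33 had 5 counts in the 6 libraries. Sigirr, an inhibitory receptor of the family, was at 42.5, 34.8 and 30.8 CPM in CD36+ NK and 60.4, 62.5 and 61.3 CPM in CD36- NK. It differed by a log2 fold change of -0.77 ± 0.130 (SE, edgeR adjusted p = 0.0142), short of 2-fold.

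Among 20 inflammasome and release genes 2 were higher DEGs and 0 lower, with a median log2 fold change of 0.20. An unadjusted p below 0.05 was reached by 11 of them, beside 26.3% of all tested genes, and 3 were DEGs with DESeq2 and with edgeR's exact test, beside 7.74% and 8.45%. The groups did not overlap for 7 genes that were higher, beside 17.0% of all tested genes, and for 2 that were lower, beside 15.7%. Ninj1, whose protein ruptures the membrane of dying cells, was at 49.4, 30.3 and 45.8 CPM in CD36+ NK and at 18.5, 23.3 and 14.6 CPM in CD36- NK (log2 fold change of 1.15 ± 0.236, SE, edgeR adjusted p = 0.0266). Its call held in 2 of 6 fits with 1 library left out. Naip1, a sensor partner of NLRC4, was higher as well (1.901 ± 0.433, SE, edgeR adjusted p = 0.0368), but passed the filter only through CD36+ NK, with 23, 30 and 19 counts against 9, 7 and 2, and was called in 0 of the 6 fits with 1 library left out. It belongs to a family of similar genes, so its value is uncertain. The sensors Nlrc4 (0.88, edgeR adjusted p = 0.0393), Aim2 (0.69, edgeR adjusted p = 0.0396) and Naip6 (0.97, edgeR adjusted p = 0.0462, of the same family as Naip1) were above every CD36- NK library in every CD36+ NK library but short of 2-fold. Nlrp1b was past 2-fold (1.12, edgeR adjusted p = 0.0728) but missed the threshold on p. The other sensors of the list, Naip2, Naip5, Nlrp1a and Mefv, overlapped between the groups, with log2 fold changes of 0.23, 0.50, 0.17 and -0.33. Casp1 and Gsdmd, the protease and the pore of the pathway, were at 83.7 ± 10.9 against 81.3 ± 11.4 CPM and at 124 ± 14.1 against 111 ± 10.1 CPM (SD, n = 3), with log2 fold changes of 0.04 and 0.16. Pycard, the adaptor between NLRP3 and caspase-1, had a log2 fold change of -0.59 ± 0.117 (SE, edgeR adjusted p = 0.0243), below 2-fold, opposite in sign to Nlrp3. Panx1 was also lower in every CD36+ NK library, short of 2-fold (-0.41, edgeR adjusted p = 0.0462).

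Of 22 signalling genes 0 were DEGs in edgeR's quasi-likelihood test, in DESeq2 or in edgeR's exact test, 4 had an unadjusted p below 0.05, and the median log2 fold change was 0.03. Myd88, Irak1 and Irak4, which carry the signal from the receptors, had log2 fold changes of 0.06, -0.005 and 0.31. Irak3, a brake on this signal, had the largest value of the list, 0.78 ± 0.153 (SE, edgeR adjusted p = 0.0229), below 2-fold.

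Of 15 target genes 13 were tested and 3 were DEGs, with 4 at an unadjusted p below 0.05, 3 DEGs with DESeq2 and 4 with edgeR's exact test. Ifng, the interferon that NK cells release on IL-12 and IL-18, was at 38.6, 56.3 and 59.2 CPM in CD36+ NK and at 211, 218 and 493 CPM in CD36- NK (log2 fold change of -2.58 ± 0.371, SE, edgeR adjusted p = 0.00800). This lay within the range of the NK lineage genes, -2.58 to -2.21, and Ifng was not set against that list within libraries. The cause of its lower level was not tested. Cxcl2 and Cxcl1 encode neutrophil chemokines that IL-1 induces. Cxcl2 was at 124, 112 and 46.1 CPM in CD36+ NK and at 32.3, 14.9 and 15.3 CPM in CD36- NK (2.17 ± 0.448, SE, edgeR adjusted p = 0.0274), and its call held in 3 of 6 fits with 1 library left out. Cxcl1 was scarce, with 52, 42 and 20 counts against 6, 3 and 2, and passed the filter only through CD36+ NK (3.26 ± 0.528, SE, edgeR adjusted p = 0.0121, called in 5 of 6 such fits). The call of Ifng held in all 6 of these fits. Other targets such as Tnfaip3, Nfkbia, Nfkbiz and Il6 were not called, with log2 fold changes of -0.83, -0.53, 0.06 and -0.71. Csf2 was not called but lower in every CD36+ NK library (-1.60, edgeR adjusted p = 0.0510), and passed the filter only through CD36- NK. Ptgs2 was not called but higher in every CD36+ NK library (0.40, edgeR adjusted p = 0.283).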

How the data were processed

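Bulk RNA-seq covered 3 samples per group. Reads were filtered with Seqtk, mapped with HISAT2 2.0.4 and quantified with StringTie by the authors, whose deposited table holds raw counts and FPKM per gene. Count divided by the deposited FPKM and by the library total, which stands for a gene's length, was the same in all libraries within 1% for 100% of the 7439 genes whose count exceeded 200 in each library. No gene length was compared, so it is not known whether this factor is the length of the transcripts. The FPKM were used only to compare levels between genes. The submitters' processing notes name a rat build although the identifiers are mouse, and the table names no build, so its own coordinates are given. The lines of 2 genes were broken and were rejoined. Columns were matched to samples by library name. Replicate numbers follow the titles, and the library names of CD36- NK carry other numbers.

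Counts were analysed with edgeR 4.0.16 in R 4.3.3 by filterByExpr (minimum count 10), TMM and the quasi-likelihood test, with no replicate term and with Benjamini-Hochberg adjustment. All adjusted p-values of single genes come from edgeR. The SE of a log2 fold change was its size divided by the square root of F. Within-library differences used log2(CPM + 2) and the exact permutation test. DESeq2 1.42.0 was an alternative, as were other scalings, filters and leaving out each library. The fit was tested on simulated data. Replicates differed by more than counting noise (chi-square per degree of freedom 13.5 to 26.5). The 10 genes, the pathway and marker lists and the tests were chosen with earlier results of these data known. Named are the 10 genes, Cd36, DEGs of the pathway lists, the gene of each marker list with the highest mean FPKM, neighbours in both gene clusters and the 3 genes most like Il1b and Il18r1. Any further gene in the text was picked with its values in view.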

Additional observations from a re-analysis of the deposited data

How the results depend on the processing

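Il1b, Il18r1 and Il18rap were DEGs in every alternative, with log2 fold changes of 2.62 to 2.87, -2.51 to -2.21 and -2.70 to -2.33. Il1a was at 2.93 to 3.79 where tested, but passed the filter only through CD36+ NK and was not tested with at least 10 counts in every library. Of the 10 genes 5 to 7 were DEGs, except 4 when replicate 1 or 3 of CD36- NK was left out. Leaving out 1 library gave 4 to 7. Il18 was also not called without a filter on low counts (edgeR adjusted p = 0.0577). With 1 library left out, Il1r2 ranged from -0.10 (-0.0969, without CD36+ NK replicate 1) to 1.03 and Il1rap from -0.053 (without CD36+ NK replicate 1) to 0.17, with -0.0198 for Il1rap without CD36+ NK replicate 2. The cause was not tested. Over all genes there were 880 DEGs, 1552 without the fold threshold, and 417 to 1160 with 1 library left out (418 without CD36+ NK replicate 2, of which 120 were higher, 451 and 132 without CD36+ NK replicate 3, 417 and 94 without CD36- NK replicate 1, and 431 and 143 without CD36- NK replicate 3). Of the pathway genes 5 were DEGs, 8 with edgeR's exact test, 3 with at least 10 counts in every library, 12 without the fold threshold and 1 to 7 with 1 library left out. Il1a relative to the macrophage list was at 0.14 with a pseudocount of 0.5 CPM instead of 2 CPM, against -0.60. Library names were in lower case for replicate 1 of both groups and in upper case for the others. This form of the library name as a block, chosen after the data were seen, gave 912 DEGs and 7 of the 10 genes.

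The replicate number as a block gave 560 DEGs (221 higher and 339 lower), 5 of the 10 genes (Il18 and Il18bp not called, edgeR adjusted p = 0.0911 and 0.0705) and 3 pathway genes. Same-numbered libraries had correlations of their deviations of 0.367, 0.0871 and -0.0860 across genes, and 2 of 6 libraries correlated best with the library of their own number, so the numbers were not taken as pairs. Depth limits the level of Il1a in CD36- NK, which rests on 3 to 14 counts per library.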
